A study of Mus musculus with 16 samples.

Results

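The transcripts described here are those of 31 genes of mitochondrial and peroxisomal fatty acid oxidation, out of 48432 genes in the deposited table. They form a named list (the carnitine shuttle, mitochondrial β-oxidation with its electron acceptors, peroxisomal β- and α-oxidation, acyl-CoA thioesterases, and *Pdk4* and *Ucp2*), and the rule that names them uses no measured value, although earlier results of these data were known when the list was drawn up. RNA-seq was made from mouse peritoneal macrophages (PM), harvested 5 days after injection of 3% thioglycolate and loaded with oxidized LDL (oxLDL, 50 µg/ml) for 48 h, in 4 groups of 4 samples (16 in all). LDAH-Tg PM (genotype label LDAH overexpression) came from mice whose transgene is driven by the promoter and first intron of *Csf1r*, which is active in macrophages and granulocytes, and their WT controls carry the label LDAH ApoE control. LDAH-KO PM (label LDAH KO) came from mice in which a cassette replaced several exons of *Ldah*, and their WT controls are labelled LDAH WT. All groups share the strain label C57BL/6J, the thioglycolate and the oxLDL, so PM without oxLDL are not analysed here. Sex and age are not in the labels. The study describes crosses of both lines to Apoe-/- mice, but whether the mice of the RNA-seq carried that deletion was not given in the sources used here. *Apoe* read 8775 TPM in the controls of LDAH-Tg, 7947 in LDAH-Tg, 9565 in the controls of LDAH-KO and 10404 in LDAH-KO PM.

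Each value is a group mean of TPM as the authors deposited it, a level scaled by transcript length and by the total of all transcripts. A mean per group has no SD, so no difference below could be set against the spread between samples and none was tested. The depth of the samples is unknown. Sizes are log2 ratios after adding 0.5 to each mean, for genes with a mean of at least 1 TPM over both groups and no group listed at 0, and a factor of 1.2 is used as a size, not as a test. *Ldah* checked the genotypes. Its mean TPM was 124 in LDAH-Tg against 28.5 in their controls, and 27.9 in LDAH-KO against 44.5 in theirs; the gene-level mean does not show which exons the remaining *Ldah* reads in LDAH-KO PM came from.

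Fatty acids enter mitochondria as acylcarnitines and are then shortened by repeated rounds of dehydrogenation, hydration, a further dehydrogenation and thiolysis. The electrons pass through the electron transfer flavoprotein to the respiratory chain. Peroxisomes shorten very long and branched chains by a parallel set of enzymes, and both sets are known targets of the PPAR nuclear receptors, which bind direct repeats of the element AGGTCA. In macrophages oxidation is one fate of the fatty acids released from lipid droplets and from engulfed lipoproteins.

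The promoters of 4 members are printed because they carry the features discussed next: the shared start region of the *Hadha*-*Hadhb* pair, and the 3 promoters nearest to the PPAR element. Sequences are from RefSeq on GRCm38.p6, 250 bases before to 50 after the start, 5′ to 3′ along the gene. Capitals mark a match to AGGTCANAGGTCA, in either orientation, with up to 2 mismatches.
*Hadhb*, chr5:30155003-30155302, plus strand: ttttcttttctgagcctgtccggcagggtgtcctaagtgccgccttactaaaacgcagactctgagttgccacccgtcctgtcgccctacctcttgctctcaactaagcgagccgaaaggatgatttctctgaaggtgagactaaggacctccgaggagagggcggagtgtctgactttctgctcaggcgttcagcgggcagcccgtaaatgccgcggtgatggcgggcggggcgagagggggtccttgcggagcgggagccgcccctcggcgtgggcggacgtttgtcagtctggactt
*Etfa*, chr9:55512194-55512493, minus strand: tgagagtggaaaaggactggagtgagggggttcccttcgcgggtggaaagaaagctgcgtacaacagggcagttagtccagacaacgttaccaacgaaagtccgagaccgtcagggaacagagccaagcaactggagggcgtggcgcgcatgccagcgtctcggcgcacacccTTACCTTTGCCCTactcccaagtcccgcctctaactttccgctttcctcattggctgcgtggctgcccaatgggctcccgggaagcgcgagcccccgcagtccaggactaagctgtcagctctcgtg
*Echs1*, chr7:140116372-140116671, minus strand: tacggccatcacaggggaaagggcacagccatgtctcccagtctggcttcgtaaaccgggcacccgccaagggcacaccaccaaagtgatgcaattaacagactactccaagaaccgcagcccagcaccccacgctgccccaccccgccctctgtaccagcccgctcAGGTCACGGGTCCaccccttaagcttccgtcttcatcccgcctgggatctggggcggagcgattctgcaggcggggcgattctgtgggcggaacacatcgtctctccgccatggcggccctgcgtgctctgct
*Slc25a20*, chr9:108661886-108662185, plus strand: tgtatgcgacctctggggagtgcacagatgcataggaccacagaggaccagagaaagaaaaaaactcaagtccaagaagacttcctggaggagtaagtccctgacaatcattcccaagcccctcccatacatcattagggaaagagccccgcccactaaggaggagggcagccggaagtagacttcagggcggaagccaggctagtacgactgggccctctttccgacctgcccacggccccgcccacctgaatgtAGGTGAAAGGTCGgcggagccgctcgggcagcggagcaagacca

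*Hadha* (minus strand) and *Hadhb* (plus strand), which encode the α and β subunits of the mitochondrial trifunctional protein, start 86 bases apart on chromosome 5, and their promoter windows share 228 bases. Of the 31 members, 28 had a promoter in the RefSeq table. The exact repeat AGGTCANAGGTCA, searched on both strands, was in 0 of the 28 and in 0.0396% of all 32851 promoters. With up to 2 mismatches it was in 3 of 28 (10.7%), against 3.86% of all promoters. The single element AGGTCA, which can overlap the repeat, was in 6 of 28 (21.4%: *Cpt1a*, *Acadvl*, *Acadm*, *Echs1*, *Scp2* and *Phyh*), against 16.3% of all. The element TNAAGGTCA, bound by estrogen-related receptors, was in 0 of 28 against 1.28% of all. A match is a description of letters, and its absence from these windows says nothing of a factor.

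Most members were well expressed in every group. The median level over the 31 was 56.6 TPM in the controls of LDAH-Tg, 49.0 in LDAH-Tg, 64.8 in the controls of LDAH-KO and 67.2 in LDAH-KO PM. *Ucp2*, an anion carrier of the inner mitochondrial membrane, was the highest in all 4 groups, with 372, 357, 593 and 633 TPM in that order. The same 5 genes led each group (*Ucp2*, *Ech1*, *Etfb*, *Acadl* and *Scp2*), although their order differed between the lines. At the other end, *Pdk4*, a kinase that restrains pyruvate oxidation, read between 0.02 and 0.15 TPM, and was the only member without a ratio. *Ehhadh*, *Acot1*, *Acot2* and *Hacl1* stayed below 10 TPM in all groups. Summed, the members held 0.262% of all TPM in the controls of LDAH-Tg, 0.244% in LDAH-Tg, 0.342% in the controls of LDAH-KO and 0.35% in LDAH-KO PM.

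**Figure D1:**
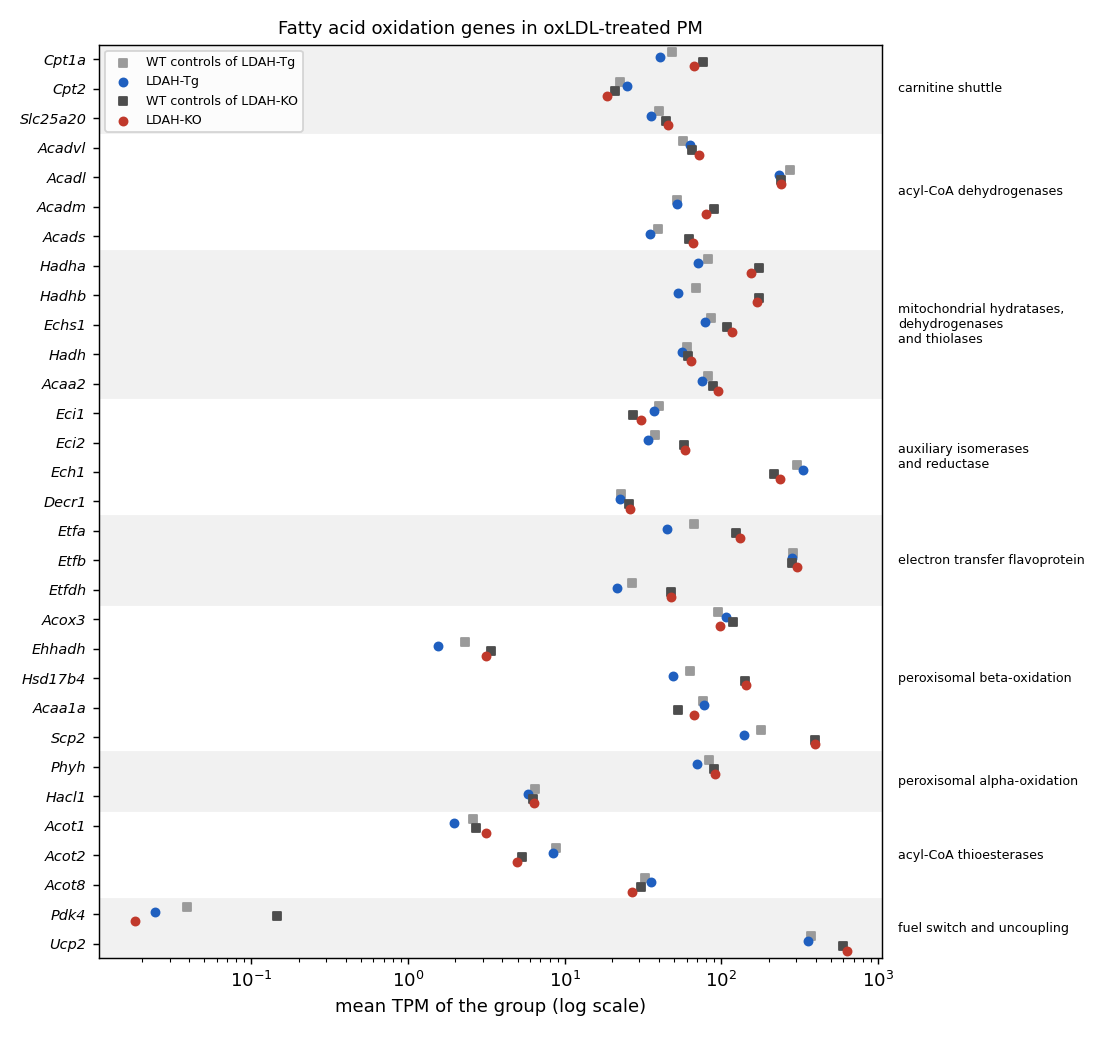
Mean TPM (log axis) of the 31 genes in the 4 groups of oxLDL-treated PM, ordered by role, each point the authors' mean of 1 group with no error available. *Ucp2* is highest in every group (357 to 633 TPM), and *Pdk4* lies under 0.2 TPM.

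In LDAH-Tg PM, the genes furthest below their WT controls were *Etfa* and *Etfdh* of the electron transfer flavoprotein system, *Hadhb* of the trifunctional protein, *Ehhadh*, *Hsd17b4* and *Scp2* of peroxisomal β-oxidation, and the thioesterase *Acot1*. Of the 30 members with a ratio, 23 were lower and 7 higher by any size, where 49.5% of all 11395 genes were lower. The median log2 ratio was -0.125 over the members, against 0.002 over all genes. By a factor of 1.2, these 7 members were lower, where 8.48% of all genes were that much lower. By the same factor 0 members were higher, where 11.2% of all genes were. None differed by a factor of 1.5, which 1.95% of all genes did in either direction. The direction counts and the 7 lower genes came out the same after median-ratio scaling and after quantile normalization.

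In LDAH-KO PM the members had log2 ratios between -0.27 and 0.33. By any size 19 were higher and 11 lower, with a median log2 ratio of 0.02, against -0.075 over all 11289 genes. Of all genes 33.4% were higher and 66.6% lower. By a factor of 1.2, 1 member was higher (*Acaa1a*, where 3.22% of all genes were) and 1 lower (*Acox3*, where 15.6% of all genes were). A factor of 1.5 was reached by 0 members and by 2.22% of all genes. After median-ratio scaling the counts by any size were 22 higher and 8 lower, beside 5644 of all genes in each direction. *Acox3* was then no longer past the factor. Quantile normalization gave 23 higher and 7 lower, beside 5875 and 5374 of all genes. By a factor of 1.2 it gave 2 members higher and 0 lower, beside 824 and 778 of all genes.

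Set side by side, 16 of the 30 members were lower in LDAH-Tg and higher in LDAH-KO PM by any size, 4 showed the opposite (*Cpt2*, *Acadm*, *Acox3* and *Acot8*), 7 were lower in both and 3 higher in both. Over the 10858 genes with a ratio in both lines the shares were 17.1% for the first pattern and 32.3% for its opposite, 33.9% lower in both and 16.7% higher in both. The first pattern held 19 members (26.9% of all genes) after median-ratio scaling and 20 (26.8%) after quantile normalization. Against the 500 genes nearest in transcript length, *Eci2* (-0.005), *Etfb* (-0.002) and *Phyh* (-0.032) were no longer higher in LDAH-KO PM. *Etfdh* (0.026) was higher there under this centring. Past a factor of 1.2, 0 members differed in both lines. In LDAH-Tg PM 11.2% of all genes were higher and 8.48% lower by that factor, and in LDAH-KO PM 3.22% and 15.6%. The share of all genes past it in both lines was not computed, so the 0 is not a result about the members. Of the 7 members lower by that factor in LDAH-Tg PM, 4 were higher in LDAH-KO PM by any size, with log2 ratios of 0.08 for *Etfa*, 0.01 for *Hsd17b4*, 0.01 for *Scp2* and 0.18 for *Acot1*. These are smaller in size than the ratios of the same genes in LDAH-Tg PM. After either scaling 6 of the 7 were higher in LDAH-KO PM. Of all 11289 genes 33.4% were higher there before scaling, 5644 genes after median-ratio scaling and 5875 after quantile normalization. The share among all genes lower by a factor of 1.2 in LDAH-Tg PM was not computed. Against genes of like length *Hadhb* (-0.045) and *Ehhadh* (-0.02) were lower in LDAH-KO PM and the rest of the 7 higher.

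**Figure D2:**
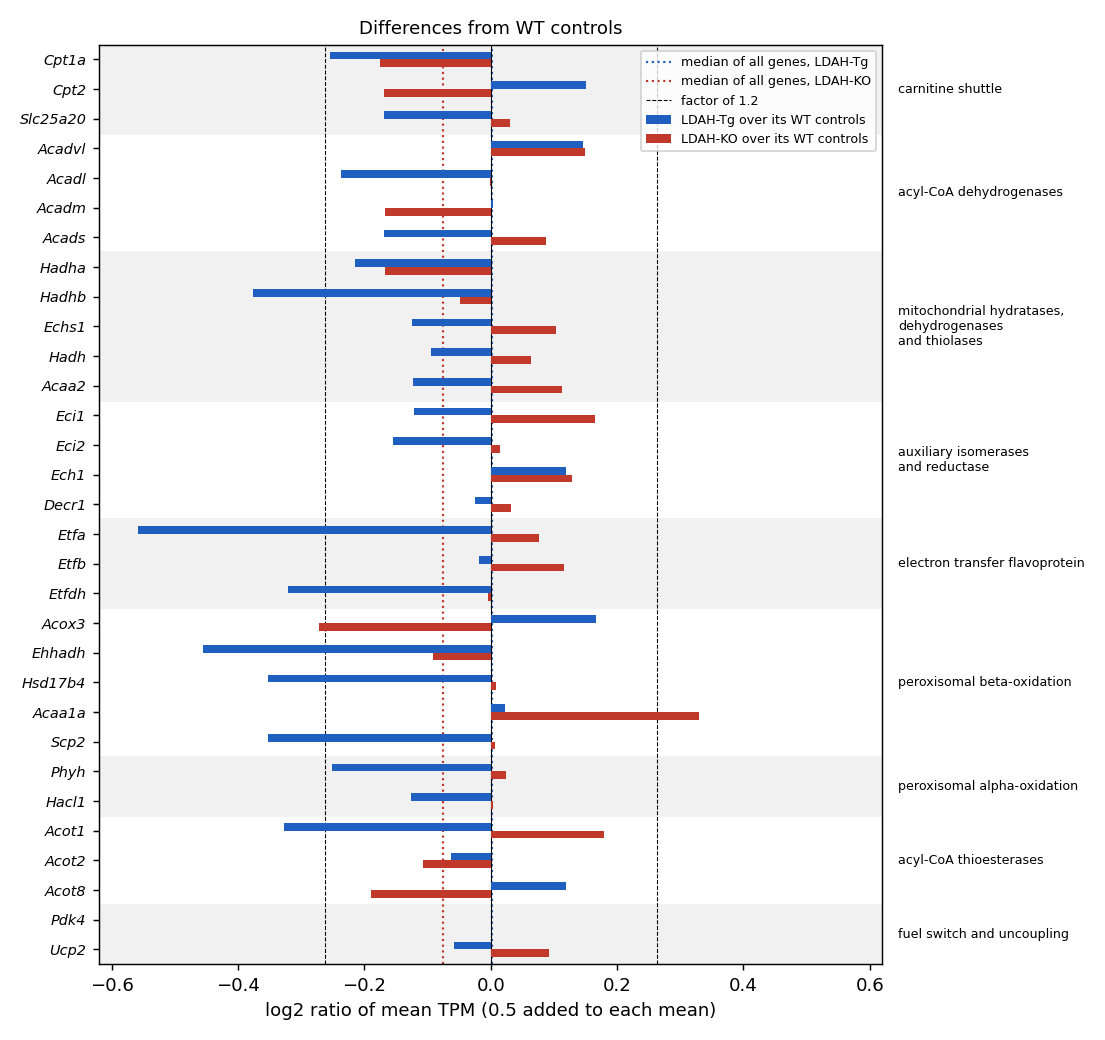
Log2 ratio of mean TPM to the WT controls of the same line for each member, in LDAH-Tg (blue bars) and LDAH-KO PM (red bars), with 0.5 TPM added to each mean, dashed lines at a factor of 1.2 and dotted lines at the median of all genes (0.002 and -0.075). In all, 7 blue bars pass the lower line, and *Acox3* and *Acaa1a* are the only red bars past either line.

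The electron transfer flavoprotein held the lowest ratio of all members. *Etfa*, the α subunit of the soluble carrier (chr9:55454508-55512243, GRCm38, minus strand), read 66.8 TPM in the controls and 45.2 in LDAH-Tg, 125 in the controls and 132 in LDAH-KO PM. It was 32.3% lower in LDAH-Tg than in its controls (log2 ratio -0.56). *Etfb*, the β subunit that pairs with it, read 286, 282, 281 and 304 TPM in the same order and differed by a log2 ratio of only -0.02 in LDAH-Tg PM. The ratio of *Etfb* to *Etfa* was therefore 4.28 in the controls of LDAH-Tg and 6.24 in LDAH-Tg, against 2.25 and 2.31 in the LDAH-KO line. *Etfdh*, the membrane oxidoreductase that receives the electrons, was also lower, at 26.9 TPM in the controls and 21.4 in LDAH-Tg (log2 ratio -0.32), and 47.9 and 47.7 in the LDAH-KO line.

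Transcripts of both subunits of the trifunctional protein were lower in LDAH-Tg PM. *Hadhb*, which carries the thiolase (chr5:30155248-30184593, GRCm38, plus strand), read 68.5 TPM in the controls and 52.6 in LDAH-Tg, and 174 and 168 in the LDAH-KO line. Its log2 ratio was -0.38 for LDAH-Tg and -0.05 for LDAH-KO, the latter being 0.03 after median-ratio scaling. *Hadha*, which carries the hydratase and dehydrogenase, read 81.8, 70.4, 173 and 154 TPM in the same order, with log2 ratios of -0.21 and -0.17. The level of *Hadha* over that of *Hadhb*, the gene with which it shares its start region, was 1.19, 1.34, 0.997 and 0.918 in the 4 groups.

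Of the soluble enzymes of short and medium chains, *Echs1* (hydratase), *Hadh* (dehydrogenase) and *Acaa2* (thiolase) were each lower in LDAH-Tg PM by log2 ratios between -0.125 and -0.095 and higher in LDAH-KO PM by 0.06 to 0.11. With *Hadha* and *Hadhb*, 5 of 5 genes of these steps were lower in LDAH-Tg PM by any size, where 49.5% of all genes were. Their median was -0.125.

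Peroxisomal β-oxidation was split by step. *Acox3*, an acyl-CoA oxidase that makes the first double bond, read 94.7 TPM in the controls and 106 in LDAH-Tg, and 119 and 98.2 in the LDAH-KO line. It was the member most above its controls in LDAH-Tg PM (log2 ratio 0.17) and most below them in LDAH-KO PM (-0.27). The bifunctional enzymes of the middle steps were below their controls in LDAH-Tg PM. *Hsd17b4* read 62.7 and 49.0 TPM in the LDAH-Tg line (log2 ratio -0.35) and 142 and 143 in the LDAH-KO line (0.01). *Ehhadh*, at low levels, read 2.31 and 1.55 TPM (-0.46), then 3.36 and 3.12 (-0.09).

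The thiolases that end the peroxisomal cycle differed from each other. *Scp2*, which also encodes a sterol carrier protein (chr4:108043839-108144998, GRCm38, minus strand), read 179 TPM in the controls and 140 in LDAH-Tg (log2 ratio -0.35), and 396 and 398 in the LDAH-KO line. *Acaa1a* read 76.1 and 77.3 TPM (0.02) in the LDAH-Tg line, and 53.0 and 66.7 in the LDAH-KO line (0.33). Its level was thus 25.9% above the controls in LDAH-KO PM and close to them in LDAH-Tg PM. The locus that the authors' table gives for *Acaa1a* spans 224.3 kb. The annotated gene spans 10.6 kb and overlaps *Myd88* and *Slc22a14* on the other strand, and genes in the rest of that locus were not listed. In all, 12 members had a locus more than 1 kb longer than the annotated gene. Among them was *Scp2* (130.2 against 101.2 kb), whose annotated gene overlaps *Podn* on the same strand.

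α-Oxidation trims branched chains such as phytanic acid before β-oxidation. *Phyh*, its hydroxylase, read 83.1 TPM in the controls and 69.7 in LDAH-Tg (log2 ratio -0.25), and 89.3 and 90.8 in the LDAH-KO line. *Hacl1*, the lyase that follows, read between 5.85 and 6.43 TPM in the 4 groups.

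In the carnitine shuttle the outer and inner enzymes went opposite ways in LDAH-Tg PM. *Cpt1a*, the outer-membrane transferase that sets the rate of entry, read 48.5 TPM in the controls and 40.6 in LDAH-Tg (log2 ratio -0.26, just short of a factor of 1.2), and 75.9 and 67.2 in the LDAH-KO line (-0.18). *Cpt2*, the inner transferase, was higher in LDAH-Tg PM (22.6 and 25.1 TPM, 0.15) and lower in LDAH-KO PM (20.9 and 18.5 TPM, -0.17). *Slc25a20*, the translocase between them, had log2 ratios of -0.17 and 0.03.

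The acyl-CoA dehydrogenases, which open each cycle for a given chain length, showed no common direction. *Acadl* (long chains) was the highest, at 274 TPM in the controls and 233 in LDAH-Tg (log2 ratio -0.24), and 240 in both groups of the LDAH-KO line. *Acadm* (medium chains) read 52.0 and 52.1 TPM in the LDAH-Tg line, and 89.8 and 80.0 in the LDAH-KO line. *Acads* (short chains) had log2 ratios of -0.17 and 0.09, and *Acadvl* (very long chains) 0.15 in both comparisons.

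The auxiliary enzymes that move or remove double bonds of unsaturated chains (*Eci1*, *Eci2*, *Ech1* and *Decr1*) lay close to their controls. Their log2 ratios were between -0.16 and 0.12 for LDAH-Tg and between 0.02 and 0.16 for LDAH-KO. In LDAH-KO PM 4 of 4 were higher by any size, where 33.4% of all genes were. Among the thioesterases, which release free fatty acids from acyl-CoA, the cytosolic *Acot1* was lower in LDAH-Tg PM (2.59 and 1.96 TPM, -0.33) and higher in LDAH-KO PM (2.73 and 3.16 TPM, 0.18). Its mitochondrial neighbour *Acot2* had log2 ratios of -0.06 and -0.11 (the latter 0.01 after quantile normalization) and the peroxisomal *Acot8* 0.12 and -0.19. *Ucp2* differed by -0.06 and 0.09.

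Several of these values rest on transcripts that resemble others. Cut into windows of 100 bases, as long as the reads, the transcript of *Hadhb* shared 52.8% of windows with other genes (*Gm13910* and *Gm9108*), *Scp2* 32.2% (*Scp2-ps2* and *Gm47162*), *Acot1* 21.9% (mainly *Acot2*) and *Acaa1a* 21.6% (*Acaa1b*). *Etfb* (65.2%), *Hacl1* (52.7%), *Acot2* (17.1%) and *Acot8* (13.8%) were also above 10%. Of the look-alikes, *Gm13910* read 0.655 TPM in the controls of LDAH-Tg, 0.506 in LDAH-Tg, 2.2 in the controls of LDAH-KO and 2.64 in LDAH-KO PM. *Scp2-ps2* read 1.37, 1.18, 3.69 and 4.37 TPM in the same order, and *Acaa1b* stayed below 0.07 in all groups. *Acot2* was above *Acot1* in all groups, at 8.85 against 2.59 TPM in the controls of LDAH-Tg, and *Snx21*, which overlaps *Acot8* on the other strand, read 13.8 TPM in those controls and more in the other groups. No value was at hand for *Gm9108*, *Gm47162* and *Gm49387*, the last being the one that *Hacl1* resembles. How the authors' counting divided such reads was not given in the sources used here. Without these 8 members, 4 were lower by a factor of 1.2 in LDAH-Tg PM (*Etfa*, *Etfdh*, *Ehhadh* and *Hsd17b4*), and 0 were higher in LDAH-KO PM.

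The ratios also went with base composition and length of the transcript. Over 10433 genes the log2 ratio of LDAH-Tg PM was higher at higher GC content (Spearman's rho 0.37, with medians of -0.115 in the lowest and 0.158 in the highest of 20 bins), and over the 30 members rho was 0.59. The 15 members of lower GC content had a median of -0.237 and held 6 of the 7 genes lower by a factor of 1.2, and the 15 of higher GC content had a median of -0.058 and held 1 (*Acot1*). In LDAH-KO PM the log2 ratio was lower for longer transcripts (rho -0.63 over 10431 genes and -0.49 over the members), and the members were shorter than genes at large (median 2048 bases against 3069). These rho values are across genes that share the same libraries and are descriptions.

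Set against the median of the 500 genes nearest in GC content, 8 members were lower by a factor of 1.2 in LDAH-Tg PM (*Acads* besides the 7), with a median of -0.144. Against the genes nearest in GC content and length together there were 7 (*Acads* in place of *Etfdh*), with a median of -0.128. In LDAH-KO PM the median against genes of like length was 0.02, where before centring it was 0.02 beside -0.075 over all genes. The members thus lay nearer to genes of like length than to all genes. By any size 17 members were higher and 13 lower after this centring, where 19 and 11 were before. *Acot8* was lower and *Acaa1a* higher by a factor of 1.2, and *Acox3* was no longer past it. The part of base composition and length in the values was not tested beyond this centring.

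**Figure D3:**
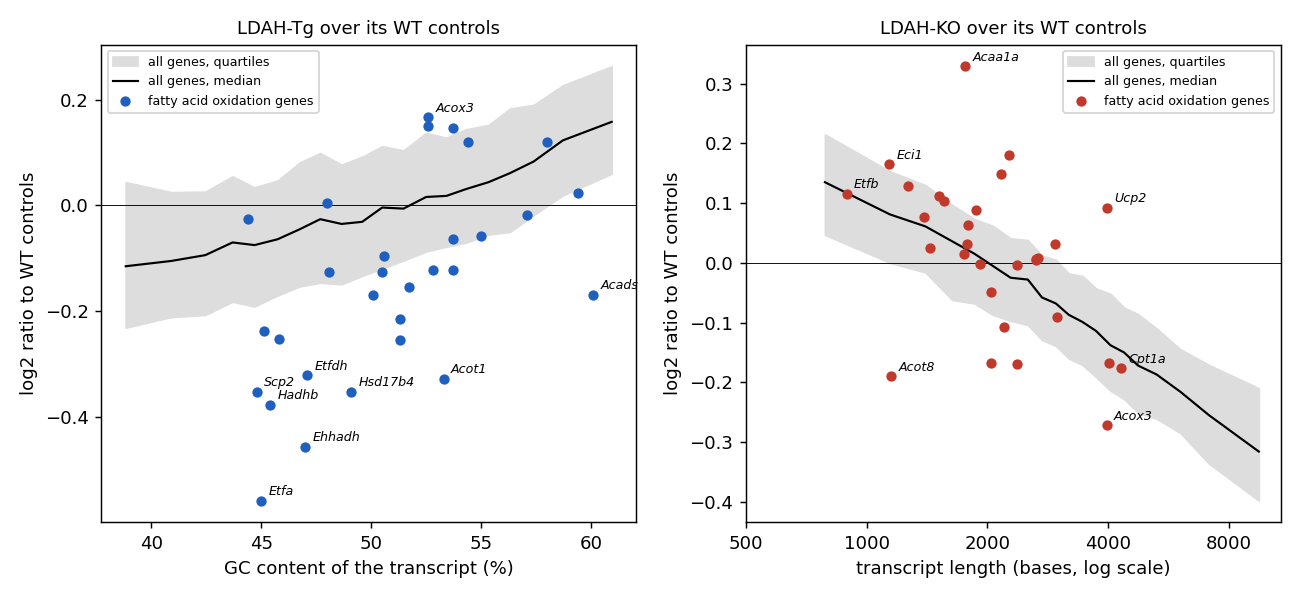
Log2 ratio to WT controls against GC content of the transcript (left, LDAH-Tg, in %) and transcript length (right, LDAH-KO, log axis in bases), with members as points and all genes as the median line and quartile band of 20 bins. Among the members below the band at their GC content are *Etfa*, *Ehhadh*, *Hadhb*, *Scp2*, *Hsd17b4*, *Etfdh*, *Acot1* and *Acads*, beside others not named here. On the right *Acox3*, below the band at its length, is the lowest point (-0.27).

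The WT controls of the 2 lines differed more from each other than either line from its controls. By a factor of 1.5, 11 of 30 members were higher in the controls of LDAH-KO than in those of LDAH-Tg, where 26.5% of all 11404 genes were, and 1 was lower (*Acot2*), where 12.1% were. After median-ratio scaling 7 were higher and 4 lower, and after quantile normalization 6 and 4. *Hadhb* was 2.53-fold, *Hsd17b4* 2.27-fold, *Scp2* 2.22-fold and *Hadha* 2.11-fold higher, while *Eci1*, *Ech1* and *Acaa1a* were 0.68, 0.713 and 0.696 of the level in the controls of LDAH-Tg. The median over the members (0.18) was that of all genes (0.175), and was -0.008 once the latter was scaled to 0. Line, batch and all else that moves with them cannot be told apart here. The comparisons share these control groups with the ones above, so no likeness between them is given.

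Among 41 other genes of fatty acid oxidation in the table, 31 had a ratio for LDAH-Tg and 30 for LDAH-KO. In LDAH-Tg PM 3 of 31 were lower by a factor of 1.2, a share near the 8.48% of all genes. By that factor 0 were higher, where 11.2% of all genes were, and the median was -0.04. The 3 were *Echdc1*, which removes ethylmalonyl-CoA (log2 ratio -0.33), *Abcd2*, a peroxisomal fatty acyl transporter (-0.30), and the thioesterase *Acot9* (-0.27). In LDAH-KO PM 1 was higher (*Acad12*, 0.29) and 0 lower, where 3.22% and 15.6% of all genes were, with a median of -0.04. After median-ratio scaling 3 were higher, beside 715 of all 11289 genes, and the median was 0.04. After quantile normalization 4 were higher, beside 824 of all genes.

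The step before oxidation, uptake and activation of fatty acids, was lower in LDAH-Tg PM in 16 of 17 genes by any size (median -0.18), 4 of them by a factor of 1.2, against 49.5% and 8.48% of all genes. *Cd36*, the scavenger receptor that takes up oxLDL and fatty acids, read 3276 TPM in the controls and 2113 in LDAH-Tg (log2 ratio -0.63). It was listed at 0 in both groups of the LDAH-KO line, which in a table without counts can be a failed estimate, so no ratio is given there. The acyl-CoA synthetases *Acsl3* (-0.34) and *Acsl5* (-0.27) and the peroxisomal tether *Acbd5* (-0.27) were the others. The lipid-binding proteins *Fabp5*, the most abundant gene of the list, and *Fabp4* were at 9877 and 1583 TPM in the controls and 8624 and 1330 in LDAH-Tg PM. In LDAH-KO PM 1 of 16 was lower (*Acsf2*, -0.27) and 0 higher, where 15.6% and 3.22% of all genes were. After either scaling it was 0 lower and 1 higher. Of all 11289 genes 983 were lower and 715 higher after median-ratio scaling, and 778 and 824 after quantile normalization.

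Regulators of the pathway were also read. Of 11 PPAR and PGC-1 regulators with a ratio, 2 were higher by a factor of 1.2 in LDAH-Tg PM, the fatty acid receptor *Ppard* (19.3 TPM in the controls and 23.2 in LDAH-Tg, 0.26) and the estrogen-related receptor *Esrra* (44.8 and 54.0, 0.27), where 11.2% of all genes were, and 1 was higher after median-ratio scaling. In the same PM 1 was lower, where 8.48% of all genes were: *Tfam*, which packs mitochondrial DNA and drives its transcription (log2 ratio -0.46). In LDAH-KO PM 10 of 11 were lower by any size, where 66.6% of all genes were (8 after median-ratio scaling and 7 after quantile normalization). By a factor of 1.2, 5 were lower, where 15.6% of all genes were. After median-ratio scaling 3 were (*Ncor1*, *Nrip1* and *Ppargc1b*), beside 983 of all 11289 genes. After quantile normalization 1 was (*Ncor1*), beside 778 of all genes. The lowest of the 5 was *Ncor1*, a corepressor of nuclear receptors (85.6 TPM in the controls and 56.5 in LDAH-KO, -0.60), followed by *Nrip1* (-0.37), *Ppargc1b* (-0.36), *Ppard* and *Med1* (both -0.28). The log2 ratio of LDAH-KO PM was lower for longer transcripts (rho -0.63 over 10431 genes). These regulators were not set against genes of like length, so the part of length in their ratios was not tested. *Pparg* was the most abundant PPAR, at 72.0 and 64.4 TPM in the LDAH-Tg line and 173 and 151 in the LDAH-KO line. PPAR targets outside oxidation had medians of -0.06 and 0.05. *Plin2*, which coats lipid droplets, was the highest of those with a value in all groups, at 2474 and 2196 TPM in the LDAH-Tg line and 3397 and 3507 in the LDAH-KO line.

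**Figure D4:**
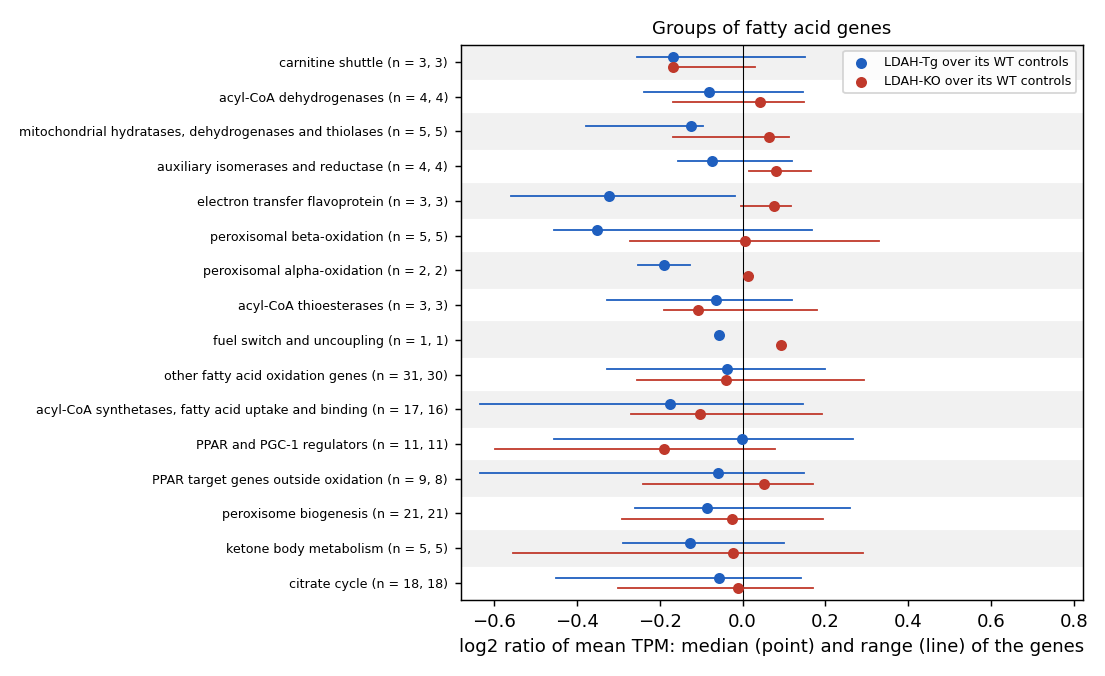
Median (point) and range (line) of the log2 ratio to WT controls for each role of the members and each related gene list, in LDAH-Tg (blue) and LDAH-KO PM (red), with the number of genes with a value in each comparison in brackets. The lowest medians are those of peroxisomal β-oxidation (-0.35) and the electron transfer flavoprotein (-0.32) in LDAH-Tg PM.

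The cells were checked against markers. Of 10 macrophage markers, *Cd68* read 3023 to 4959 TPM and *Csf1r* 94.2 to 108 TPM in all groups. *Lyz2* was listed at 0 in 3 groups and at 10105 TPM in LDAH-Tg PM, so it was not compared. *Adgre1* was lower in LDAH-Tg PM (33.1 TPM in the controls and 22.4 in LDAH-Tg, -0.55), as was *Itgam* (-0.39), and *Itgam* (-0.33) and *Mrc1* (-0.37) were lower in LDAH-KO PM. Of 6 fibroblast markers, 4 had a ratio, of which 3 (*Pdgfra*, *Dcn* and *Col3a1*) were lower by a factor of 1.5 in LDAH-KO PM. The summed level of the 6 was 205 TPM in the controls of LDAH-Tg, 179 in LDAH-Tg, 185 in the controls of LDAH-KO and 159 in LDAH-KO PM. Most of it was *Pdpn* (154 TPM in the controls of LDAH-KO and 143 in LDAH-KO PM), so the sum says little of the others. In the same 2 groups *Dcn* read 19.8 and 11.6 TPM, *Pdgfra* 4.74 and 1.83, and *Col3a1* 4.75 and 1.61. The sum of 7 mesothelial markers was 4.58 TPM in LDAH-KO against 7.49 in their controls, and 8.5 in LDAH-Tg against 7.89 in theirs. By a factor of 1.5 *Upk3b* and *Wt1* were lower in LDAH-KO PM, and by 1.2 *Krt18* and *Krt19* were higher in LDAH-Tg PM. The sum of 8 neutrophil markers lay between 67.1 and 110 (mainly *S100a8*, with *Ly6g* at 0 in all groups), that of 8 eosinophil and mast cell markers between 3.42 and 4.80, and that of 8 B and T cell markers below 1. In bulk RNA fewer cells of a type and less RNA per cell cannot be told apart, and the part of these markers in the members' values was not tested.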

How the data were processed

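RNA of 16 samples was sequenced by the authors (poly(A) libraries, paired reads of 100 bases). STAR 2.4.2a, HTSeq, Cuffdiff 2.2.1, DESeq2, Trimmomatic and bcl2fastq 2.17.1.14, with GRCm38 (mm10), are listed in the submitters' processing notes. The tool that made the TPM values and the annotation release were not given in the sources used here. The deposited table holds the authors' mean TPM of each group (4 columns, 48432 genes, each summing to 1000000), beside 1 line of totals that was dropped. Single samples are not among the columns, so depth, SD and tests could not be had.

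Log2 ratios were taken after adding 0.5 TPM, for genes with a mean of at least 1 TPM over the 2 groups and no group at 0. Factors of 1.2 and 1.5 are sizes. Named genes were all 31 members, up to 4 genes of each other list past a factor of 1.2 or above 100 TPM, and *Ldah*. *Apoe*, *Med1* as the last of 5 genes, the marker genes and the look-alike or overlapping transcripts were named outside that rule after their values were seen. The members and lists were chosen with earlier results of these data known. The longest protein-coding transcript of GENCODE M21 gave coordinates, GC content and length. The steps (Python 3.11.15, numpy 2.4.6, pandas 2.3.3) were tested on simulated data. Other pseudocounts, filters, scalings and factors were tried.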

Additional observations from a re-analysis of the deposited data

How the results depend on the processing

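Only group means were at hand, so no value could be computed without a replicate. No paired analysis was possible because the table holds 1 mean per group. In LDAH-Tg PM the median of the members kept its sign under every alternative. The number lower by a factor of 1.2 (7) was 14 by a factor of 1.1, 0 by 1.5 and 4 without members that share windows with other genes, and the number higher (0) was 3 by a factor of 1.1. In LDAH-KO PM the number lower (1) was 6 by a factor of 1.1, 0 by 1.5, 2 without a filter on low values (*Pdk4* added), and 0 after median-ratio scaling, quantile normalization or centring on GC content. The number higher (1) was 4 by a factor of 1.1, 0 by 1.5, 2 after quantile normalization or centring on mean TPM, and 0 without members that share windows. The median of the other oxidation genes in LDAH-KO PM (-0.039) was 0.038 after median-ratio scaling, 0.064 after quantile normalization, and 0.044, 0.018, 0.014 and 0.052 when centred on GC content, length, both, and mean TPM. Between the control groups, the members' median (0.177) was -0.008 after median-ratio scaling, -0.044 after quantile normalization, -0.082 centred on mean TPM and 0.326 without members that share windows. The number lower by a factor of 1.5 (1) was 4, 4, 3 and 0 under these settings and 2 centred on GC content. The number higher (11) was 7 after median-ratio scaling or centring on GC content and length, and 6 after quantile normalization or centring on GC content or mean TPM. The share of all genes past a factor of 1.5 between the control groups was not computed under these settings. Centring and leaving out members that share windows were chosen after seeing the data. The cause of these shifts was not tested, other than for the settings that leave out or add genes or change the factor. Means alone give no spread, so differences as small as most here cannot be told from sampling noise.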

Other observations

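Pathways next to fatty acid oxidation showed a few lower genes in LDAH-Tg PM. Of 18 citrate cycle genes, 2 were lower by a factor of 1.2, where 8.48% of all genes were, and both encode subunits of succinate-CoA ligase: *Suclg1* (81.8 TPM in the controls and 59.7 in LDAH-Tg, log2 ratio -0.45) and *Sucla2* (39.3 and 30.0 TPM, -0.38). In LDAH-KO PM these had log2 ratios of 0.10 and -0.02, and *Ogdh*, a subunit of the oxoglutarate dehydrogenase complex, was lower (113 TPM in the controls and 91.9 in LDAH-KO, -0.30) by a factor of 1.2, which it no longer was after median-ratio scaling. The 18 genes had medians of -0.06 for LDAH-Tg and -0.01 for LDAH-KO, the latter 0.07 after median-ratio scaling.

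Of 21 genes of peroxisome biogenesis and content, 0 passed a factor of 1.2 in LDAH-Tg PM, where 11.2% of all genes were higher and 8.48% lower by it. *Cat*, the peroxisomal catalase, came close to it, at 353 TPM in the controls and 295 in LDAH-Tg (log2 ratio -0.26). Among genes of ketone body metabolism, *Bdh1*, at no more than 2.03 TPM, was lower in both lines (log2 ratios -0.29 and -0.55). *Oxct1*, which activates ketone bodies for oxidation, had log2 ratios of -0.13 and -0.11.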
